A study of Mus musculus with 6 samples.

Results

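The genes examined here encode the enzymes and binding proteins of CpG methylation itself, and they were chosen by name: Dnmt1, Dnmt3a, Dnmt3b and Uhrf1 (writing), Tet1, Tet2 and Tet3 (removal), and Mbd1, Mbd2 and Mbd3 (reading). All covered CpG sites between 1 kb upstream of each gene's start and its end were taken, with gene records from GENCODE M21 on mm10. This gave 649 of the 890041 sites in the data, in 10 of 22955 gene windows with at least 3 covered sites. A site is the cytosine of a CpG on 1 strand, so the strands of a CpG were counted separately where both were covered. The assay was reduced representation bisulfite sequencing (RRBS), which sequences the ends of fragments cut at CCGG and therefore samples CpG-rich sequence. The tissue was micro-dissected dentate gyrus, the part of the hippocampus in which new neurons arise in adult life. The libraries came from female C57BL/6JRj mice aged 4.5 months, with 1 mouse per library. One group had lived in standard cages (STD, n = 3 mice) and the other in an enriched environment (ENR, n = 3 mice), a large shared enclosure with tunnels and toys, so that cage and housing type cannot be told apart. The values are the percent of reads at a site that were methylated, and how many reads a value rests on is not known except that the authors required at least 10.

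Methyl groups are added to cytosine by the DNMT enzymes. DNMT1 copies the pattern of the old strand onto the new one after replication, and UHRF1 brings it to hemimethylated DNA, whereas DNMT3A and DNMT3B can methylate DNA that carried no mark. TET enzymes oxidise the methyl group, which starts its removal, and the MBD proteins belong to a family named for a domain that binds methylated CpGs. The oxidised form made by TET enzymes, 5-hydroxymethylcytosine, is frequent in neurons and is read as methylated after bisulfite. Because the tissue was bulk, a different share of cell types and a different methylation within a cell type cannot be told apart in any value below.

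Most of the DNA covered in these genes was unmethylated. Over the 6 libraries, 527 of the 649 sites (81.2%) had a mean under 10%, against 63.7% of all sites, and 298 were at 0 in every library. Intermediate means of 20 to 80% were found at 52 sites (8.01%, against 14.6% of all sites), and means over 80% at 42 sites (6.47%, against 15.5%). RRBS covered from 4.30% (Tet2) to 12.9% (Mbd1) of the CpGs in a gene window, so the values describe a small part of each gene. Every one of the 649 positions was a cytosine of a CpG on its strand in the GRCm38.p6 reference.

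The covered sites lay in short stretches rather than along the whole gene. When runs of sites were broken at gaps over 400 bp, a limit chosen after the positions were seen, 47 stretches resulted, and 30 of them held at least 3 sites and together 627 sites. In 12 stretches, with 499 sites and at least 1 in each of the 10 genes, methylation was under 5% in all 6 libraries. A further 7 stretches, with 42 sites in 4 genes, were over 70% in all 6 libraries. The other 11, with 86 sites in 4 genes, lay outside both limits. Over all genes, 31.7% of 54032 stretches were under 5% and 18.5% over 70% in all libraries. Both limits were set after the values were seen, and the counts are a description.

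The low stretches were dense in CpGs. Within 201 bp around their centres, they had a median of 19.5 CpGs, which was 0.896 of the number their base composition gives (the observed to expected ratio). The high stretches had 7 CpGs and a ratio of 0.488, and the others 5 CpGs and a ratio of 0.335. Density and level did not always go together: the methylated Tet1 stretch at 29.1 kb had 16 CpGs in its 201 bp, whereas an unmethylated one at 42.7 to 43.3 kb had 8.

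**Figure D1:**
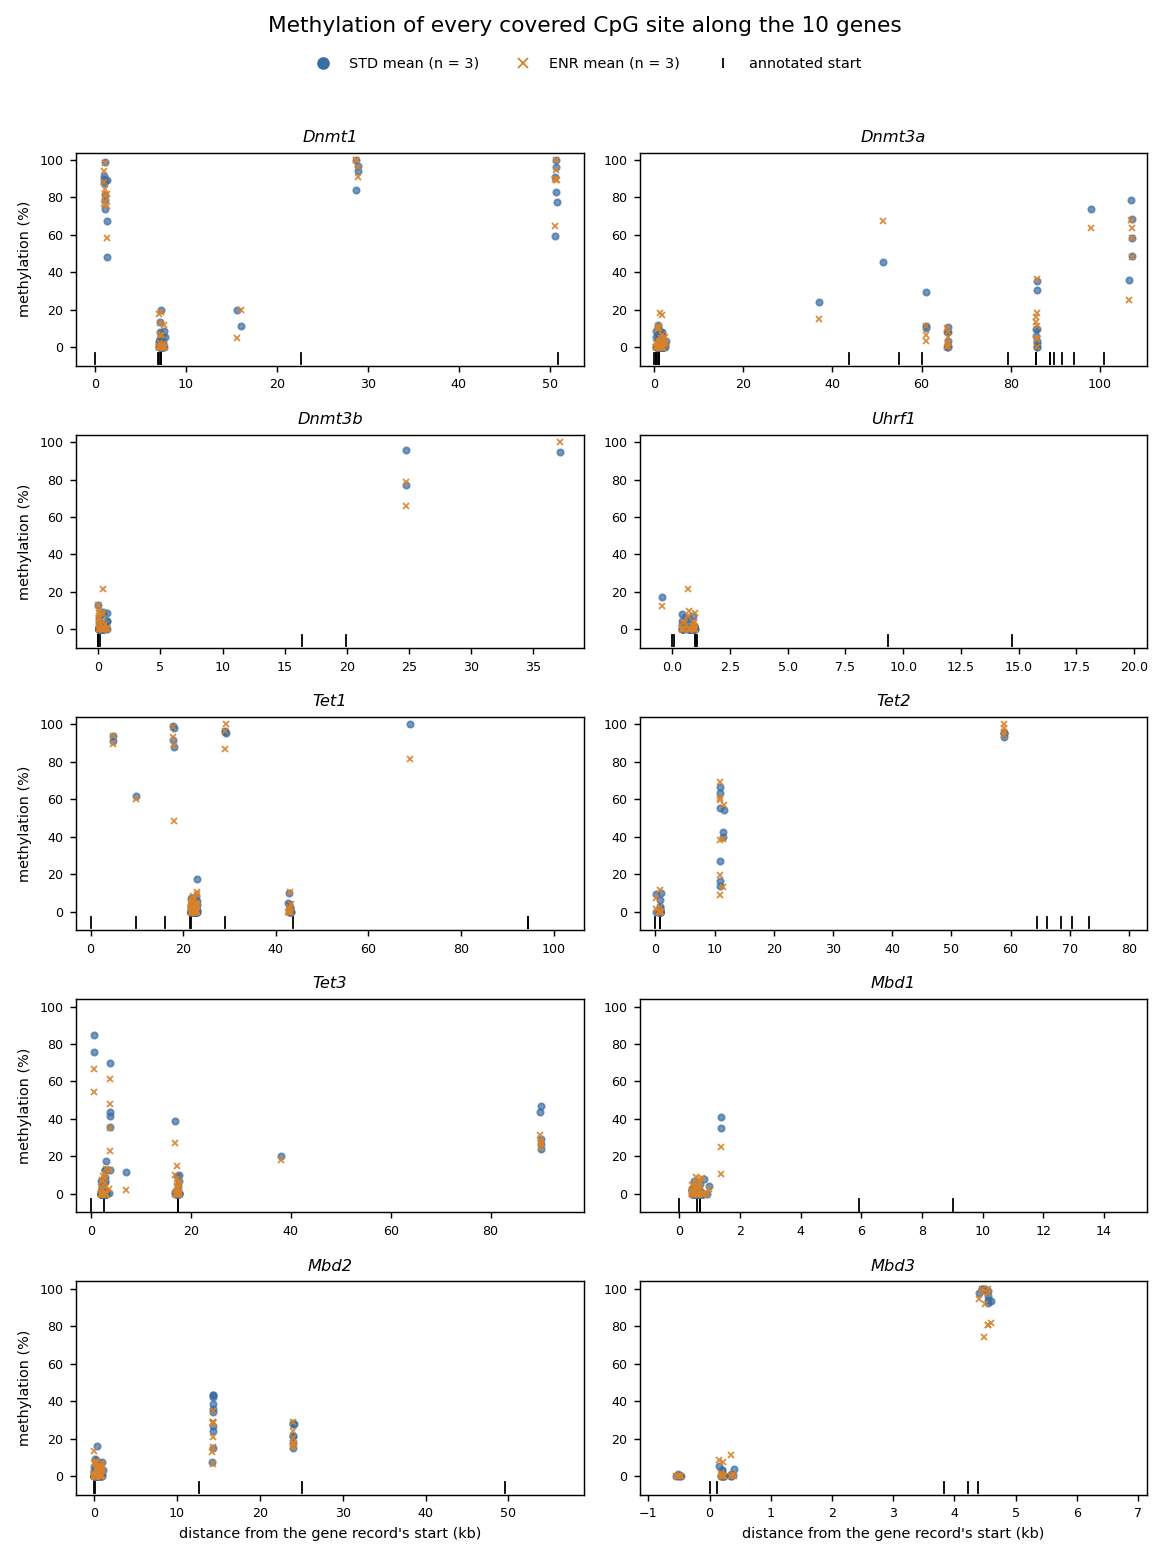
Methylation of each of the 649 covered sites (vertical axis, percent) against its distance from the start of the gene record in the direction of transcription (horizontal axis, kb), 1 panel per gene. Blue dots are STD means and orange crosses ENR means (n = 3 each), and black ticks mark annotated transcript starts. Each gene has a dense group of sites near 0%, and Dnmt1, Dnmt3b, Tet1, Tet2 and Mbd3 also have sites with a mean over 80%.

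The sharpest contrast within a small gene was seen in Mbd3 (ENSMUSG00000035478.14, chr10:80392539-80399550, minus strand), a subunit of the NuRD chromatin remodelling complex. Its 5 sites upstream of the gene start had a mean of 0.115%, the 14 sites at 0.2 to 0.4 kb (exon sequence, untranslated and coding) 1.67%, and the 10 sites at 4.4 to 4.6 kb (a coding exon and the intron after it) 93.6%. The unmethylated upstream stretch and the methylated one inside the gene are shown with covered CpGs in capitals, on the strand of the gene in GRCm38.p6, at chr10:80400017-80400093 and chr10:80394949-80395141.
Mbd3 upstream: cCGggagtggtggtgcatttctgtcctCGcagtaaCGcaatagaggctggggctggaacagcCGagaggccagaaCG
Mbd3 inside the gene: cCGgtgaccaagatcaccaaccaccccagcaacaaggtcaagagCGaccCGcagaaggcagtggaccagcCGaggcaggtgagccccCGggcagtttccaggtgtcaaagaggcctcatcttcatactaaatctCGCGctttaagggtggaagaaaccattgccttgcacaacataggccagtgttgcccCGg

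In the methylated Mbd3 stretch the mean was 96.2%, 97.3% and 98.2% in STD mice 1, 2 and 3 and 92.8%, 99.2% and 77.9% in ENR mice 1, 2 and 3. ENR mouse 3 was the lowest and ENR mouse 2 the highest, so the groups overlapped. The difference of group means was -7.27 percentage points (SE 5.19, limma adjusted p = 1.00 over 53922 stretches). At 0.2 to 0.4 kb the level was between 0.340% and 3.19% in every mouse.

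Because several Mbd3 transcripts are annotated to start inside the gene, all 29 of its sites lay within 1 kb of a transcript start. These starts are the reason that its promoter mean, taken over sites near any start, was 33.1%. Near the start of the gene record alone, the 19 covered sites belonged to the unmethylated stretches.

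Dnmt1 (ENSMUSG00000004099.16, chr9:20907209-20959888, minus strand), the maintenance methyltransferase, had the reverse order near its start. The 11 sites at 1.0 to 1.3 kb, in an intron, had a mean of 81.5%, and the 44 sites at 7.1 to 7.7 kb, around other annotated starts, a mean of 1.91%. The methylated stretch was at 80.8%, 80.7% and 82.7% in STD and 83.9%, 82.7% and 78.1% in ENR. The groups overlapped there and differed by 0.144 percentage points (SE 3.33). Farther into the gene, 4 intronic sites at 28.7 kb were at 95.3% and 6 sites at 50.6 to 50.8 kb, most of them coding, at 86.3%.

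Tet1 (ENSMUSG00000047146.17, chr10:62804570-62908996, minus strand) had no covered site within 1 kb of its record start. Its 73 sites at 21.6 to 23.1 kb, around internal starts, were at 1.39%. The 4 intronic sites at 17.9 to 18.0 kb were at 88.3% and the 3 coding sites at 29.1 to 29.2 kb at 95.3%. A stretch of 11 intronic sites at 42.7 to 43.3 kb, near a further start, was again unmethylated (1.94%). The coding stretch is printed because it is the most CpG-rich of the methylated ones, although the 65 bases that lie between its outer sites hold only 4 CpGs, of which 3 were covered and stand in capitals (gene strand, chr10:62879817-62879881).
Tet1 coding stretch: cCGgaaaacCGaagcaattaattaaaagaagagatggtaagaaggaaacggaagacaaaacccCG

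Dnmt3a (ENSMUSG00000020661.15, chr12:3806007-3914443, plus strand), the main de novo methyltransferase of mature neurons, had the most covered sites (100) and 18 annotated starts. The 70 sites at 0.5 to 2.0 kb were at 1.62%. Low methylation was also found in an intron far from the record start, where 7 sites at 65.8 to 65.9 kb had a mean of 4.27% and ranged between 2.18% and 5.98% over the mice. That stretch lies outside every promoter window of the gene and is shown with covered CpGs in capitals (chr12:3871814-3871920, plus strand).
Dnmt3a intron: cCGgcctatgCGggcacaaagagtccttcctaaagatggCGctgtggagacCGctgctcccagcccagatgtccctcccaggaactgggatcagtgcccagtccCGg

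At the far end of Dnmt3a, 4 sites in untranslated exon sequence at 107 kb had levels of 73.2%, 75.5% and 41.9% in STD and 55.0%, 76.7% and 47.1% in ENR. The libraries numbered 3 were the lowest of their groups. The difference of -3.95 percentage points (SE 11.6) was far smaller than the SDs of 18.7 in STD and 15.3 in ENR.

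In Dnmt3b (ENSMUSG00000027478.15, chr2:153649450-153687730, plus strand), the other de novo enzyme, 53 of 56 sites lay at 0 to 0.7 kb and had a mean of 1.55%. All 53 also fall in the window of the antisense gene Dnmt3bos. Only 3 sites were covered in the rest of the gene, 2 in an intron at 24.8 kb (79.4%) and 1 in untranslated exon sequence at 37.1 kb (97.4%). Uhrf1 (ENSMUSG00000001228.14, chr17:56303321-56323486, plus strand) was covered at its promoter only, with 44 sites at 0.4 to 1.0 kb at 1.26%.

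Tet2 (ENSMUSG00000040943.12, chr3:133463679-133545139, minus strand) was unmethylated at 0.7 to 0.9 kb (23 sites, 0.786%), intermediate in an intron at 10.9 to 11.6 kb (9 sites, 41.3%) and methylated in coding sequence at 58.8 kb (4 sites, 96.0%). The 25 promoter sites of Tet2 are shared with the window of Gm42567. Tet3 (ENSMUSG00000034832.15, chr6:83362373-83459084, minus strand) had 52 sites at 2.0 to 3.0 kb at 1.5% and 23 sites around an internal start at 16.8 to 17.7 kb at 3.43%. Of the 52, 44 were intronic. At 3.7 to 3.8 kb, in untranslated exon sequence, 6 sites were at 32.2%. Of the sites of Tet3, 24 are shared with 5430434F05Rik and B230319C09Rik.

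The readers Mbd1 (ENSMUSG00000024561.10, chr18:74267605-74282732, plus strand) and Mbd2 (ENSMUSG00000024513.16, chr18:70568189-70626131, plus strand), whose proteins bind methylated CpGs and repress transcription, were unmethylated near their starts. Mbd1 had 43 sites at 0.4 to 1.0 kb at 1.25%, and Mbd2 had 67 sites up to 1.0 kb at 1.35%. Inside Mbd2, 10 sites at 14.2 to 14.4 kb, 9 of them in untranslated exon sequence, were at 27.1%, and 7 intronic sites at 24.0 to 24.1 kb at 21.4%. Over the 6 mice, these stretches of Mbd2 ranged from 5.0% to 34.5%.

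**Figure D2:**
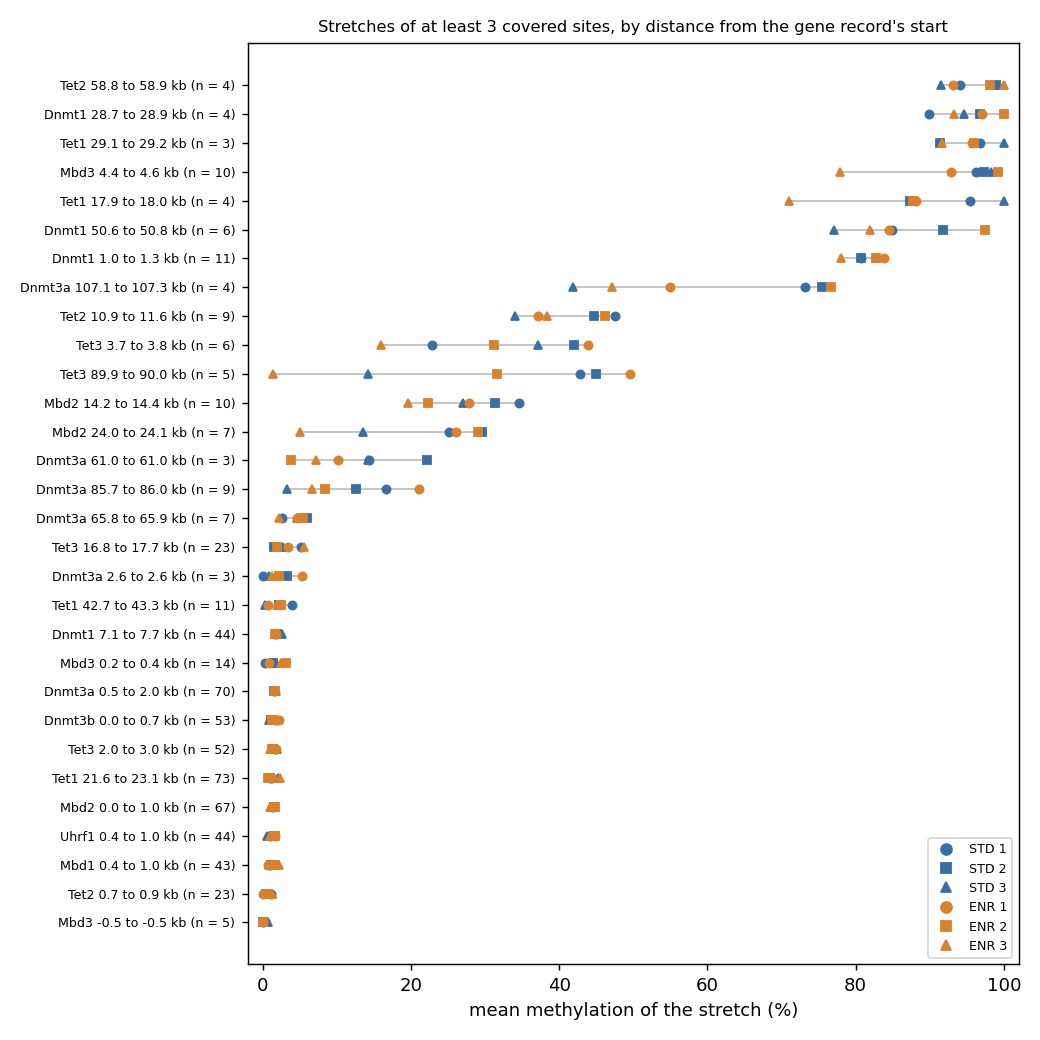
Mean methylation (horizontal axis, percent) of the 30 stretches with at least 3 covered sites, ordered by level, with their distance from the start of the gene record and number of sites. Each symbol is 1 mouse (blue STD, orange ENR, shape by replicate number) and grey lines join the lowest and highest mouse. No mouse is over 3.98% in the 12 low stretches, and the widest spread is that of Tet3 at 89.9 to 90.0 kb, from 1.38% to 49.6%.

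The first comparison was whether ENR changed the mean methylation of the gene windows. No gene was called with limma (adjusted p under 0.05) among the 10, and none of all 22934 windows tested was (0%). None of the 10 had an unadjusted p under 0.05 (background 3.86%), and the smallest was 0.288 (Mbd2). The STD and ENR mice overlapped in all 10 genes, whereas they did not overlap in 8.46% of all windows. By group means, 7 genes were lower and 3 higher in ENR (57.6% of all windows were lower), with a median difference of -0.403 percentage points against -0.192 over all windows.

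Among the writers, the Dnmt3a window had means of 8.50%, 8.48% and 4.98% in STD and 7.98%, 7.59% and 5.09% in ENR. The libraries numbered 3 were low in both groups, and the groups differed by -0.432 percentage points (SE 1.28). Dnmt1 was at 28.0%, 29.1% and 28.0% in STD and 28.4%, 30.3% and 27.0% in ENR, with the ENR mice on both sides of the STD mice. Dnmt3b was at 5.98% ± 0.484 in STD and 6.10% ± 0.713 in ENR (SD, n = 3 each), and Uhrf1 at 1.38% ± 0.641 and 1.75% ± 0.621.

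For the TET genes, Tet1 was at 12.1%, 11.1% and 12.7% in STD and 11.5%, 11.1% and 10.8% in ENR. Tet2 was at 22.2%, 21.6% and 18.6% in STD and 18.7%, 21.6% and 21% in ENR, so that the lowest mouse was an STD mouse. Tet3 was at 8.33%, 8.60% and 7.21% in STD and 9.46%, 7.03% and 4.06% in ENR, and both the highest and the lowest mouse were ENR. The differences were -0.820 (SE 0.824), -0.359 (SE 1.66) and -1.19 (SE 1.39) percentage points, and none passed the test. That of Tet1 was -0.439 without STD mouse 3, -1.27 without STD mouse 2 and -0.276 without both libraries numbered 3. Leaving out both of those libraries gave -1.75 for Tet2 and -0.218 for Tet3, and without ENR mouse 3 alone the sign of Tet3 turned (0.200).

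In the readers, Mbd1 was at 2.73%, 3.66% and 1.49% in STD and 1.38%, 1.77% and 3.60% in ENR. Mbd2 was at 7.35%, 7.46% and 5.29% in STD and 6.45%, 6.44% and 3.54% in ENR, again with replicates 3 lowest, and the ENR mouse was the lower one in each same-numbered pair (limma adjusted p = 0.957 with the replicate number as a block). Mbd3 was at 33.3%, 34.3% and 34.9% in STD and 32.4%, 35.7% and 28.1% in ENR. The differences of -0.374 (Mbd1, SE 0.801), -1.22 (Mbd2, SE 1.05) and -2.09 percentage points (Mbd3, SE 2.60) did not pass the test. Without both libraries numbered 3, the difference of Mbd3 was 0.273 and that of Mbd1 -1.62 percentage points. With those libraries left out, Mbd1 was the 1 gene of the 10 with an unadjusted p under 0.05 (as 1263 of 22916 windows had, limma adjusted p = 0.899 for Mbd1), and its remaining mice did not overlap. Without ENR mouse 3 alone, Mbd2 differed by -0.256 and Mbd3 by -0.0805 percentage points.

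The same comparison was made at promoters, defined as within 1 kb of any annotated transcript start. All 10 genes had at least 3 promoter sites. Levels ranged from 1.08% (Tet2) to 33.1% (Mbd3), and 8 of 10 were under 10% (76.0% of all 19240 promoters were). The exceptions were Mbd3 and Dnmt1 (12.0%), in which methylated stretches near internal starts enter the mean. Differences between ENR and STD ranged from -2.09 (Mbd3) to 0.567 percentage points (Dnmt3b). That of Dnmt3b was 0.281 without both libraries numbered 3 and 0.374 to 0.860 with 1 mouse left out. No promoter was called by limma (0% of 19204), none of the 10 had an unadjusted p under 0.05 (background 4.43%), and the groups overlapped in all 10 (of all promoters, 5.65% were lower and 3.79% higher in ENR without overlap, 9.44% together). The smallest p was that of Dnmt3b (1.26% ± 0.445 in STD, 1.83% ± 0.516 in ENR, SD, n = 3 each, adjusted p = 0.998). Without ENR mouse 3, the difference of Tet2 went from -0.358 to -0.946 percentage points. Tet2 was then the 1 gene of the 10 with an unadjusted p under 0.05, as 1025 of 19194 promoters had (limma adjusted p = 0.903).

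Gene bodies, that is, the sites of a window outside its promoters, had at least 3 covered sites in 7 of the genes. Uhrf1, Mbd1 and Mbd3 had none. Body levels over all mice ranged from 21.3% (Tet1) to 85.4% (Dnmt3b). The means of Dnmt1 were 76.5% ± 0.556 in STD and 77.0% ± 4.07 in ENR (SD, n = 3 each), and those of Tet2 58.3% ± 5.72 and 58.0% ± 3.92. These differences, 0.430 and -0.361 percentage points, were 2.56 and -3.34 without both libraries numbered 3, and 7.52 and 3.12 with medians over sites. In 6 of 7 genes the ENR mean was lower (61.0% of all 12285 bodies), and in all 7 the libraries numbered 3 had a lower mean than the other libraries.

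Dnmt3b had body means of 90.6%, 88.8% and 88.4% in STD and 85.8%, 77.2% and 81.7% in ENR. All 3 ENR mice were below all 3 STD mice, with a difference of -7.67 percentage points (SE 2.91, limma adjusted p = 1.00), which was no call. This value rests on 3 sites. The pair at 24.8 kb carried the difference, with 85.8%, 83.1% and 90.5% in STD and 78.7%, 65.7% and 72.6% in ENR, whereas the site at 37.1 kb was at 100% in all mice but STD mouse 3 (84.2%). The pair lies at chr2:153674212-153674241 and stands in capitals, on the plus strand.
Dnmt3b intron: ccctccacaCGacactcCGgtcacatgtac

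Tet1 was the other gene whose bodies did not overlap, with 21.7%, 21.8% and 23.1% in STD and 20.9%, 21% and 19.1% in ENR. The 32 body sites differed by -1.92 percentage points (SE 1.86, limma adjusted p = 1.00), which was about as large as the SE. It was -0.874 without both libraries numbered 3, and with medians over sites its sign turned (0.930). Of the 32 sites, 1 is the site at 18.0 kb described below, which by itself differed by -39.7 percentage points. Whether the Tet1 groups stay apart without that site was not tested. So 2 of 7 bodies were lower in ENR without overlap, against 5.29% of all bodies, and none higher, against 2.30%. By limma, 0 of 12278 bodies were called (0%), and Dnmt3b was the 1 of 7 with an unadjusted p under 0.05 (background 3.38%). It was no longer under 0.05 with medians over sites, without both libraries numbered 3, or with any 1 mouse other than ENR mouse 1 left out.

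The remaining bodies varied between mice more than between groups. Tet3 was at 31.0%, 38.0% and 24.6% in STD and 41.3%, 28.8% and 8.29% in ENR. Its 5 coding sites at 89.9 to 90.0 kb spread the most, with 42.8%, 45.0% and 14.2% in STD and 49.6%, 31.6% and 1.38% in ENR. Mbd2 was at 29.8%, 31.0% and 22.0% in STD and 28.4%, 24.3% and 13.9% in ENR, lower in ENR in each same-numbered pair (difference -5.37 percentage points, limma adjusted p = 0.948 with the block, and -1.22 without ENR mouse 3). Dnmt3a was at 30.4%, 31.2% and 16.5% in STD and 26.1%, 30.7% and 17.7% in ENR. In each of these 3 genes the mouse numbered 3 was the lowest of its group. Without ENR mouse 3, the difference of Tet3 went from -5.07 to 3.84 percentage points.

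**Figure D3:**
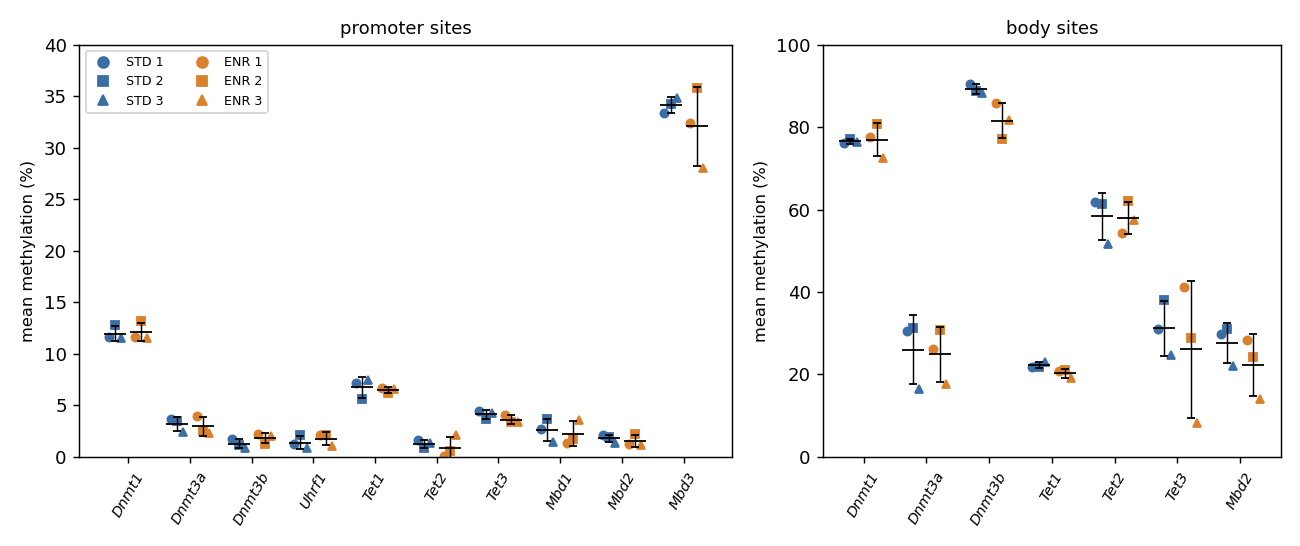
Mean methylation (vertical axes, percent, on different scales) of promoter sites in 10 genes (left) and of body sites in the 7 genes that have them (right). Each symbol is 1 mouse (blue STD, orange ENR, shape by replicate number) and black marks give the group mean ± SD (n = 3). Promoters are under 10% except in Dnmt1 and Mbd3, and the bodies of Dnmt3b and Tet1 are the ones in which the groups do not overlap.

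Promoter and body were then compared within each mouse. The body was above the promoter in all 6 mice in 7 of 7 genes, as it was in 82.7% of the 8687 genes with both regions. The gap was 83.9 percentage points in Dnmt3b, 64.7 in Dnmt1 and 57.1 in Tet2. It was smaller in Tet3 (24.8), Mbd2 (23.2), Dnmt3a (22.4) and Tet1 (14.6). Each gave p = 0.03125 in the two-sided exact permutation test over signs, the smallest p that 6 mice allow. The body of Tet1 holds 25 sites of the unmethylated stretch at 21.6 to 23.1 kb, and with medians over sites in place of means its gap was 0.465 percentage points and did not pass (exact p = 0.5), which left 6 of 7 genes with the body above the promoter in every mouse. That of Dnmt3a was 8.96 with medians, and 4.57 with promoters taken from the start of the gene record only.

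Whether housing changed the gap was tested with limma on the same difference. No gene was called (0% of 8687), and the gap was smaller in ENR in 6 of 7 genes (59.1% of all genes). Dnmt3b had a gap of 88.8, 87.6 and 87.5 percentage points in STD and 83.6, 75.9 and 79.7 in ENR, and was the 1 gene of the 7 without overlap (lower in ENR, against 4.80% of all genes lower and 2.79% higher) and the 1 with an unadjusted p under 0.05 (limma adjusted p = 1.00, background 3.40%). Its promoter and body means enter this value, so it is not independent of the body difference.

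At the level of stretches, 1 of the 30 did not overlap between the groups. It comprised 3 sites of a noncoding exon of Dnmt3a at 61.0 kb, near a transcript start, with 14.4%, 22.1% and 14.2% in STD and 10.2%, 3.87% and 7.19% in ENR. All ENR mice were lower, with a difference of -9.84 percentage points (SE 3.13, limma adjusted p = 1.00). It was the only one of the 30 with an unadjusted p under 0.05 (background 4.09%), no stretch was called (0% of 53922), and of all stretches 5.48% were lower and 3.47% higher in ENR without overlap, 8.95% together. In Mbd2 at 14.2 kb the level was 34.5%, 31.4% and 27.1% in STD and 27.8%, 22.4% and 19.7% in ENR. Those groups overlapped because ENR mouse 1 was above STD mouse 3 (difference -7.71 percentage points, SE 6.39). In each same-numbered pair the ENR mouse was the lower one, but with the replicate number as a block the difference still did not pass (SE 5.92, limma adjusted p = 0.950). At 5 of its 10 sites, close enough to each other to share reads, all ENR mice were below all STD mice (lowest limma adjusted p = 0.852, against 2.34% of all sites lower without overlap).

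Single sites were compared last. No site was called (limma adjusted p under 0.05 and a difference over 25 percentage points), in these genes or among all 615152 sites tested (0%). Of the 349 sites in the 10 genes that varied and could be tested, 10 had an unadjusted p under 0.05 (2.87%, against 2.68% of all), and 6 of these were in Dnmt1. The lowest adjusted p was 0.852. At 23 of the 649 sites no STD value lay within the ENR range or the reverse (3.54%, against 3.99% of all sites), of which 18 were lower in ENR (2.34% of all sites were) and 5 higher (1.65%).

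Regardless of a test, the group means differed by over 25 points at 9 of the 649 sites (1.39%, against 1.94% of all sites). The mean was lower in ENR at 7 (1.23% of all sites) and higher at 2 (0.706%). This split rested on single mice: without ENR mouse 3 it was 5 lower and 5 higher, and without ENR mouse 2 it was 12 lower and 2 higher. None was in Dnmt3b, Uhrf1 or Mbd2. The groups did not overlap at 3 of the 9, 1 each in Tet1, Dnmt1 and Tet3, and all 3 were lower in ENR. Of all sites over 25 percentage points, 10987 were lower and 6281 higher in ENR. How many of those were without overlap was not counted, so the 3 sites are a description.

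Over all 6 libraries, the largest difference was at an intronic site of Tet1, 18.0 kb from the record start (chr10, position 62890955). The levels were 88.9%, 75.6% and 100% in STD and 62.1%, 61.1% and 22.2% in ENR. All 3 ENR mice were below the STD mice, and ENR mouse 3 was far below the others. This site also enters the body mean of Tet1 given above. The difference was -39.7 percentage points (limma adjusted p = 0.852), or -20.7 without both libraries numbered 3. The other 3 sites of the stretch were between 79.5% and 100% in every mouse. The 30 bases around the site are shown on the gene strand with its CpG in capitals (chr10:62890941-62890970).
Tet1 site: aagccccaaacagcCGggcagtggtggcac

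In Dnmt1, sites 28 bases apart in the intronic stretch at 1.0 to 1.3 kb differed in opposite directions. The site at position 20958551 of chromosome 9 was at 85.5%, 82.9% and 100% in STD and 77.3%, 54.5% and 42.9% in ENR. All ENR mice were lower there, with a difference of -31.2 percentage points (limma adjusted p = 0.852), or -18.3 without both libraries numbered 3. At position 20958579 the values were 29.1%, 46.5% and 69.6% in STD and 91.1%, 95.5% and 58.8% in ENR, which overlapped because ENR mouse 3 was below STD mouse 3 (difference 33.4, limma adjusted p = 0.852). Without both libraries numbered 3 its difference was 55.5 percentage points. Both Dnmt3a sites and the Mbd1 and Tet2 sites described below also exceeded the Tet1 site when those libraries were left out. The mean of the 11 sites of this stretch differed by 0.144 percentage points, as given above. Both CpGs are in capitals in the sequence on the gene strand, in which the second position comes first (chr9:20958535-20958594).
Dnmt1 pair: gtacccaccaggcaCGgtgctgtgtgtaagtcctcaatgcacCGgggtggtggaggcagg

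The Tet3 site lay 0.6 kb into the gene, in an intron (chr6, position 83458520), with 78.0%, 90.4% and 85.7% in STD and 66.7%, 70.6% and 26.7% in ENR. All ENR mice were lower, with ENR mouse 3 lowest, and the difference was -30.1 percentage points (limma adjusted p = 0.852), or -15.6 without both libraries numbered 3. Its neighbour at position 83458469 was at 63.6%, 82.7% and 81.5% in STD and 72.2%, 75.0% and 53.3% in ENR, which overlapped. The sequence around the first site is given on the gene strand (chr6:83458505-83458534).
Tet3 site: tcccatcaggttacCGgagccaaagaggtc

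At the other sites over 25 percentage points the groups overlapped. In Dnmt3a at 85.9 kb, the site at position 3891924 of chromosome 12 was at 6.25%, 100% and 0% in STD and 14.6%, 0% and 0% in ENR, so that STD mouse 2 alone was high. Without that mouse the difference went from -30.5 to 1.75 percentage points. The site 6 bases downstream was at 6.67%, 0% and 3.85% in STD and 76.2%, 33.3% and 0% in ENR (difference 33.0), and its difference was 13.2 without ENR mouse 1 and 51.3 without ENR mouse 3. Without both libraries numbered 3 the differences of the pair were -45.8 and 51.4. These CpGs are printed in capitals with another covered one before them, which was at 0.980% (chr12:3891913-3891942, plus strand).
Dnmt3a pair: gCGgtgggagCGtcccCGcagtcctcagtg

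The remaining ones were an intronic Mbd1 site at 47.5%, 58.6% and 16.2% in STD and 0%, 0% and 32.0% in ENR (difference -30.1), an intronic Tet2 site at 11.4 kb (-26.4) and a coding Mbd3 site (-25.6). Without both libraries numbered 3 the Mbd1 site differed by -53.0 percentage points. The Mbd3 site, in the methylated stretch printed above, was at 100% in all STD mice and at 66.7%, 100% and 56.5% in ENR, and its difference was -16.7 without ENR mouse 3 and -38.4 without ENR mouse 2. The Tet2 site was at 39.6%, 50.0% and 29.4% in STD and 8.70%, 31.2% and 0% in ENR. Its difference was -24.8 percentage points without both libraries numbered 3.

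Sites of intermediate level differed most between the libraries. The 52 sites with a mean of 20 to 80% averaged 50.6%, 50.1% and 37.7% in STD and 45.2%, 44.2% and 29.5% in ENR. The libraries numbered 3 were the lowest of each group, and ENR mouse 3 was the lowest of all 6 mice, alone, at 19 of the 52 sites (36.5%, against 35.5% of all intermediate sites). Over all 129689 intermediate sites the libraries had 52.3%, 51.7% and 43.6% in STD and 51.9%, 50.9% and 37.6% in ENR. The ENR mouse was the lower one in each same-numbered pair, in the 10 genes and over all intermediate sites alike. The ENR mean was lower at 37 of the 52 sites (71.2%, against 56.4% of all intermediate sites) and higher at 15, and lower at 33 without both libraries numbered 3 (63.5%, against 51.4%). Many of the 52 sites share a stretch, and the shares were not tested. Of the 52 sites, 8 exceeded 25 percentage points (15.4%, against 11.0% of all intermediate sites). By contrast, the 527 sites under 10% had means of 1.28% ± 0.0328 in STD and 1.29% ± 0.145 in ENR, and the 42 sites over 80% of 93.3% ± 1.14 and 91.1% ± 4.25 (SD, n = 3 mice each).

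**Figure D4:**
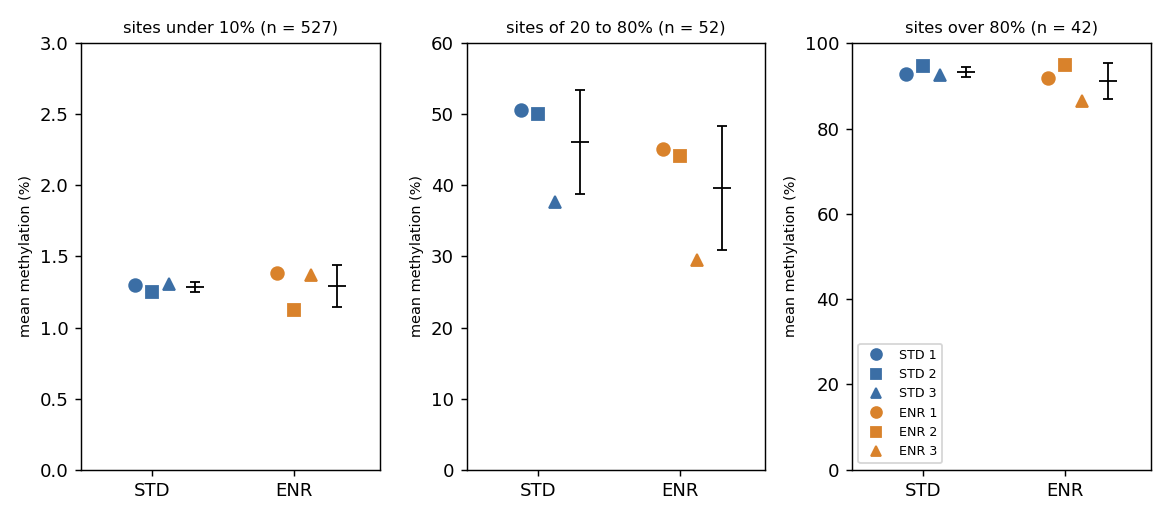
Mean methylation per mouse (vertical axes, percent, on different scales) of the covered sites of the 10 genes, split by their mean over all 6 libraries into under 10%, 20 to 80% and over 80%. Each symbol is 1 mouse (blue STD, orange ENR, shape by replicate number) and black marks give mean ± SD (n = 3). In the middle panel the mice numbered 3 are at 37.7% and 29.5%, below all others.

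Library-wide values moved with these results. Over all sites the library means were 22.5% to 24.3% in STD and 21.3% to 24.2% in ENR, with the libraries numbered 3 lowest in both groups. The windows of 4 of 4 listed astrocyte marker genes (Gfap, Aldh1l1, Aqp4, Slc1a3) were lower in ENR (differences of -5.35 to -2.46 percentage points, against 57.6% of all windows lower), and 2 of the 4 were lower without overlap (5.42% of all windows). Their mean was 28.6% to 29.1% in STD and 23.3% to 26.5% in ENR. Those of granule neuron markers (4 of 5 listed with sites) were at 10.2% to 11.8% in STD and 9.75% to 12.5% in ENR (with Calb1 lower without overlap, 2.08% ± 0.763 against 0.916% ± 0.448, SD, n = 3 each), of microglia (4 of 4) at 50.7% to 62.6% and 43.9% to 66.1%, of oligodendrocytes (3 of 4) at 52.8% to 62.1% and 54.5% to 62.5%, and of pyramidal neurons of neighbouring fields (3 of 4) at 32.1% to 39.1% and 26.1% to 37.0%. None of these genes had an unadjusted limma p under 0.05, no expression was measured, and the part of cell makeup in the results was not tested.

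A list of 32 further genes of the pathway was examined in the same way, comprising other readers, glycosylases, demethylation cofactors and partners of the enzymes. All 32 had at least 3 covered sites, and 27 of 30 with promoter sites had promoters under 10%. None was called (0% of all windows), 3 had an unadjusted p under 0.05 (Gadd45a, Mbd4 and Dppa3, background 3.86%), 16 were lower and 16 higher in ENR, and the groups did not overlap in 5 that were lower (Gadd45a, Mbd4, Trdmt1, Kdm2b and Dppa3, against 5.42% of all windows) and 1 that was higher (Cxxc1, against 3.04%). Dppa3, Trdmt1 and Kdm2b are named because of their values. Dppa3, whose protein protects the maternal genome of the zygote from demethylation, was at 69.1% ± 2.64 in STD and 58.5% ± 6.08 in ENR (SD, n = 3 each, limma adjusted p = 1.00).

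The lowest p among these genes was that of Gadd45a, whose protein takes part in repair-coupled demethylation. Its window was at 6.36%, 7.89% and 6.78% in STD and 4.83%, 4.92% and 3.78% in ENR. All ENR mice were lower, with a difference of -2.50 percentage points (SE 0.638, limma adjusted p = 1.00). Mbd4, a glycosylase with a methyl-CpG-binding domain that repairs deaminated methylcytosine, had 3.39% ± 0.747 in STD and 1.75% ± 0.285 in ENR (SD, n = 3 each, limma adjusted p = 1.00). The lowest p values in the other direction were those of Cxxc1, which binds unmethylated CpGs (6.67% ± 0.487 and 7.77% ± 0.196, limma adjusted p = 1.00), and Gatad2b, a NuRD subunit like Mbd3 (2.11% ± 0.127 and 2.44% ± 0.387, limma adjusted p = 1.00). The Gatad2b difference of 0.332 percentage points was 0.148 without ENR mouse 3 and 0.534 without ENR mouse 1.

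The window profile most like that of Dnmt3a over the 6 libraries, among 17829 genes with at least 10 covered sites, was that of Acaca, at a Euclidean distance of 1.20 percentage points. Srcin1 followed at 1.32 and Pdk1 at 1.48. Acaca was at 8.66%, 8.11% and 5.61% in STD and 7.11%, 7.28% and 5.26% in ENR. The same 6 values chose these genes, so their likeness to Dnmt3a is a description.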

How the data were processed

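DNA methylation was measured in 6 RRBS libraries, 3 STD and 3 ENR, grouped and numbered by their labels. The submitters' processing notes name Trim Galore 0.4.0, cutadapt 1.8.1, Bismark 0.16.1, methylKit 1.5.2 and mm10, whereas the study's methods give later versions of Trim Galore and Bismark. According to the study's methods, cytosines with at least 10 reads were kept. The deposited table gives the percent of methylated reads per CpG cytosine and library, as the authors computed it. Both strands were covered at 132547 CpGs and count as separate sites. Every site has a value in every library, and all per-library columns of the table were used. It gives no numbers of reads, so the study's test of reads could not be run and no counting interval is given. The labels describe the bisulfite conversion the other way round, as acting on methylated cytosines. The values were read as percent methylated, as the study's methods describe them, and 76.0% of promoters were then under 10%. The study states that each library came from an individual mouse.

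The 10 genes, the lists of further genes and the markers were chosen with earlier results of these data known. Windows ran from 1 kb upstream of the GENCODE M21 gene record to its end, promoters were within 1 kb of any transcript start, and bodies were the rest. Site percentages were averaged per region (at least 3 sites) and compared with limma 3.58.1 in R 4.3.3 (lmFit, eBayes with a variance trend) over all genes, with Benjamini-Hochberg adjustment. The procedure was run on simulated gene windows with independent noise and shifts far larger than the window differences of the 10 genes. That run therefore does not measure how well differences of their size would be found. Stretches were runs with gaps up to 400 bp. All 10 genes were named. For single sites the rule took, per gene, the largest difference over 25 percentage points without overlap, and the other sites over 25 percentage points were named after their values were seen. Of the further genes, the lowest 2 p-values in each direction were named.

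Deviations from group means of same-numbered libraries correlated over gene windows (r = 0.157, 0.130 and 0.322 for numbers 1, 2 and 3) and less over sites (r = 0.0552, 0.0319 and 0.125). Differently numbered libraries gave r = 0.121 and 0.109 over windows between numbers 1 and 2, so those numbers were hardly told apart, and -0.221 to -0.190 with number 3. By a rule of r over 0.1 in each pair, the numbers were treated as pairing the libraries for regions, although the mice differed. The labels state no pairing, and libraries 1 and 2 also passed this limit across numbers. How many of all regions were lower in ENR in each same-numbered pair was not counted. Sequences come from GRCm38.p6.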

Additional observations from a re-analysis of the deposited data

How the results depend on the processing

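Read numbers are unknown. No member window, promoter, body or site was called under any alternative run, and the one region called, on the arcsine scale, was 1 promoter of another gene. With the replicate number as a block, 0 regions were called, as without it, and the differences of all named genes were the same (Dnmt3b body -7.67). Bodies with an unadjusted p under 0.05 went from 415 to 637, stretches from 2204 to 2503, and the block changed no call. Sites over 25 percentage points numbered 14 at a limit of 20 (chosen limit 25), 0 at 40, and 10 to 15 with 1 mouse left out, the highest counts being 15 without ENR mouse 1 and 14 without ENR mouse 2.

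Small differences changed sign, and the cause was not tested. With libraries shifted to one mean they became 0.0701 (Dnmt3a), 0.143 (Tet2) and 0.128 (Mbd1) percentage points for windows, 0.240 (Dnmt3a), 0.239 (Tet1), 0.144 (Tet2), 0.128 (Mbd1) and 0.255 (Mbd2) for promoters, and 0.141 for the Tet2 body. Without both libraries numbered 3 they became -0.173 (Dnmt3b window), 0.273 (Mbd3 window and promoter), 0.0272 (Tet1 promoter) and 0.540 (Tet3 body). Medians over sites gave -0.824 (Dnmt1 window), 0.930 (Tet1 body), 3.12 (Tet2 body) and 0.687 (Tet3 body). Sites in no other gene's window gave -7.67 for the Dnmt3b window, where the body alone remains, and strands averaged gave -0.0983. Promoters from the record start gave 0.540 (Mbd1) and 0.644 (Mbd3), and no value for Dnmt1, Tet1 and Tet3.

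With 1 mouse left out, signs changed within these ranges: windows of Dnmt1 (-0.632 to 1.00), Dnmt3a (-1.60 to 0.468), Dnmt3b (-0.171 to 0.521), Tet2 (-1.47 to 0.511), Tet3 (-2.50 to 0.200) and Mbd1 (-1.05 to 0.143), promoters of Dnmt1 (-0.368 to 0.552), Dnmt3a (-0.786 to 0.0542), Tet1 (-0.841 to 0.0930), Tet2 (-0.946 to 0.0389) and Mbd1 (-1.05 to 0.143), bodies of Dnmt1 (-1.41 to 2.62), Dnmt3a (-5.98 to 2.36), Tet2 (-3.66 to 1.42) and Tet3 (-12.6 to 3.84), and the Dnmt3a site at 3891924 (-48.2 to 1.75, the latter without STD mouse 2). The Dnmt3b body stayed lower in ENR (-9.79 to -5.47), as did the Dnmt3a stretch at 61.0 kb (-11.4 to -7.22). The body stayed above the promoter in every mouse in 7 of 7 genes, although 5 mice cannot give a p-value under 0.05.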
